A study of Mus musculus with 18 samples.

Results

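The insulin receptor pathway was followed in mouse liver through 9 genes: Insr, Irs1, Irs2, Pik3r1, Pik3ca, Akt1, Akt2, Foxo1 and Foxo3. They were taken by symbol from a liver RNA-seq table of 19057 genes, in which all 9 were found, and all 9 had a mean of at least 1 RPKM and were tested with the 10204 genes that passed this filter. RPKM is the read number of a gene set against its length and the sequencing depth, so levels can be compared between genes. The table holds 18 libraries of ICR mice of 10 weeks of age, in 6 groups of 3. Con animals were kept on the regular diet and given saline. HS animals were fed a high-fat diet up to the end of the experiment and injected once with streptozotocin (STZ), which destroys beta cells of the pancreas, the source of insulin. For A10-FMT and Con-FMT, diet and STZ were as in HS, and the mice were then given, by mouth, small intestinal microbiota of donors dosed with 10 mg/kg alginate oligosaccharide (AOS) or of control donors. The donor material was pooled, so each donor group gave 1 inoculum. The A10 group (AOS at 10 mg/kg) and the HS+A10 group (diet, STZ and AOS at 10 mg/kg) were known from the sample labels only. High-fat diet and STZ were thus shared by HS, HS+A10, A10-FMT and Con-FMT. The study used male mice. Whether mice were fasted before the liver was taken, and at what time of day, is not given in the sources used here.

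Insulin binds its receptor at the surface of the hepatocyte, and the receptor phosphorylates the adaptors IRS1 and IRS2. These recruit phosphoinositide 3-kinase, which activates AKT, and AKT keeps the FOXO transcription factors out of the nucleus. In the fasted liver FOXO proteins raise the transcription of gluconeogenic genes, of Igfbp1 and of Irs2 itself, and insulin lowers it again. Most control in this pathway is by phosphorylation, which these RNA measurements do not show.

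Irs2 had the widest span of the 9 genes and Irs1, the other adaptor, went the opposite way from it in Con-FMT, so the proximal promoters of both are shown. RefSeq promoter windows on GRCm38.p6 were matched for 8 of the 9 members. The 250 bases before the transcription start are given below in gene direction (minus strand for both genes), with 2 motifs in capitals: CACGTG, an E-box, and TGTTTTG, the core of an insulin response element. The Irs1 stretch lies at chr1:82291440-82291689 and the Irs2 stretch at chr8:11008930-11009179.
Irs1: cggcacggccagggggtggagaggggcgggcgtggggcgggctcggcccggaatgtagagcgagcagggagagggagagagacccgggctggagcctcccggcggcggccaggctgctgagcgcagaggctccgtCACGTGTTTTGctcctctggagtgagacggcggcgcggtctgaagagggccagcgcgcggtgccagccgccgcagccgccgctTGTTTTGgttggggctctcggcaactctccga
Irs2: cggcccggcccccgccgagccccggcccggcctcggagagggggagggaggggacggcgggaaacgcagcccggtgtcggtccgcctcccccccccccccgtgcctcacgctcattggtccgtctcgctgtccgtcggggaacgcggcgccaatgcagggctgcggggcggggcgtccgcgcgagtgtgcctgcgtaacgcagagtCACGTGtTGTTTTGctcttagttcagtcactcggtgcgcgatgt

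In both promoters an E-box stood beside a TGTTTTG. Counting backwards from the start site, the E-box of Irs1 began at base -115 and overlapped a TGTTTTG that began at base -111, and a further TGTTTTG began at base -32. In Irs2 the E-box began at base -44 and the TGTTTTG at base -37, with 1 base between them. Both strands were searched. CACGTG was present in 6.02% of 32851 such stretches of all genes, TGTTTTG in 5.56% and both in 0.295%. No other member with a window held either motif. TGTTTAC, the only letters searched under the name of a FOXO motif, was present in 3.17% of all stretches and found in 1 window of Akt1. Its absence from the other windows does not show that they lack FOXO sites. The motifs were chosen with the sequences known, and a match describes letters only.

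The RPKM of a library added up to 692818 at the lowest and 806937 at the highest. The values that single reads give in 992 low genes put the relative depth of the libraries between 0.971 and 1.04 of their mean. Read totals are unknown, single values therefore carry no counting interval, and precision rests on 3 libraries a group. The labels do not say that the 3 libraries came from separate mice, so p-values measure the spread between these libraries. In 2 groups the third library lay between the other two. Among 140 genes that differed by more than 1 on the log2 scale between Con replicates 1 and 2, Con replicate 3 was in between for 98.6%. A10 replicate 3 was likewise in between for 96.3% of 135 genes, whereas for single libraries of the other 4 groups this share was between 54.9% and 74.4%. In genes of at least 20 RPKM, Con replicate 3 sat at a median of 0.472 of the way from replicate 1 to 2 (quartiles 0.422 and 0.506), and A10 replicate 3 at 0.631 (quartiles 0.589 and 0.681). Results that rest on Con or A10 are therefore given also without both libraries. Con-FMT replicate 3 held pancreatic acinar genes (10 genes, 17146 RPKM in sum) that summed to at most 3.54 in every other library. The called changes of members and of most named genes in Con-FMT are therefore given also without this library. The hepatocyte markers (8 genes, such as Alb and Ttr) summed to between 44508 and 69595 RPKM in all libraries. Fewer cells of a type and less RNA per cell cannot be told apart in such bulk samples.

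The AKT kinases varied least of the 9 genes. Insr (chr8:3122061-3279617 on GRCm38) encodes the insulin receptor. Its level was 9.71, 10.72 and 10.23 RPKM in Con, 11.26, 11.42 and 11.52 in A10, 11.34, 10.99 and 10.77 in HS, 14.14, 14.40 and 13.24 in HS+A10, and 12.59, 11.50 and 9.29 in A10-FMT. In Con-FMT it was at 10.93, 9.47 and 12.31. HS+A10 was the only group whose range did not overlap with the group below it, and the other 5 groups overlapped with their neighbours in the order of means. Akt2 (chr7:27591552-27640826), the main AKT kinase of insulin-responsive tissues, had the highest level of the 9 genes, between 31.33 and 38.93 RPKM in all libraries. Akt1 (chr12:112653821-112674884), which encodes the related and more widely expressed kinase, lay between 18.14 and 22.89 RPKM. The ratio of the highest to the lowest library was 1.24 for Akt2, 1.26 for Akt1, 1.41 for Pik3ca and 1.55 for Insr. The ranges of neighbouring groups overlapped for Akt1 and Akt2 throughout.

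The adaptors were expressed at much lower levels than the AKT kinases. Irs1 (chr1:82233101-82291416) was at 2.09, 2.92 and 2.60 RPKM in Con, 2.43, 3.20 and 3.05 in A10, 3.15, 3.80 and 3.99 in HS, 2.37, 3.04 and 3.72 in HS+A10, and 2.48, 2.58 and 2.55 in A10-FMT. In Con-FMT it was at 2.02, 1.98 and 1.42. Con-FMT lay below all other libraries. Irs2 (chr8:10984681-11008458) was at 1.81, 2.37 and 2.44 RPKM in Con, 1.69, 4.31 and 3.24 in A10, 3.26, 3.54 and 4.65 in HS, and 2.91, 2.40 and 3.07 in HS+A10. It was at 1.43, 1.58 and 1.52 RPKM in A10-FMT. Con-FMT libraries had 7.06, 5.13 and 9.67 RPKM. All A10-FMT libraries were below and all Con-FMT libraries above every library of the other groups. The highest Irs2 value was 6.76 times the lowest, the widest span of the 9 genes.

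The kinase that the adaptors recruit has a regulatory and a catalytic subunit. Pik3r1 (chr13:101680563-101768217) encodes p85alpha, the main regulatory subunit of phosphoinositide 3-kinase, and Pik3ca (chr3:32397671-32468486) its catalytic subunit p110alpha. Pik3r1 was at 8.58, 9.03 and 8.76 RPKM in Con, 9.90, 7.71 and 9.08 in A10, 7.83, 11.03 and 6.76 in HS, 10.91, 11.47 and 9.46 in HS+A10, and 12.23, 10.87 and 13.63 in A10-FMT. In Con-FMT it was at 14.50, 13.48 and 8.45. HS and Con-FMT each held 1 library far from the other two, and neighbouring groups overlapped throughout. Pik3ca lay between 3.75 and 5.29 RPKM, with means from 3.97 ± 0.15 in Con to 5.14 ± 0.16 in HS+A10 (SD, n = 3), and its neighbouring groups overlapped as well.

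The FOXO factors are the transcription factors that AKT keeps out of the nucleus. Foxo1 (chr3:52268336-52353221) was at 4.65, 5.71 and 5.22 RPKM in Con, 5.82, 5.88 and 6.0 in A10, 5.89, 6.34 and 6.72 in HS, 7.16, 7.11 and 7.29 in HS+A10, and 7.43, 8.03 and 8.32 in A10-FMT. In Con-FMT it was at 10.72, 9.19 and 10.08. In this order only A10 and HS overlapped. Foxo3 (chr10:42181841-42276755) was at 3.54, 4.76 and 4.93 RPKM in Con, 4.89, 6.39 and 5.83 in A10, 4.06, 5.19 and 6.50 in HS, 7.82, 6.43 and 6.66 in HS+A10, and 6.81, 6.45 and 7.74 in A10-FMT. In Con-FMT it was at 10.24, 10.88 and 8.91. Con-FMT was again above all other libraries, while Con overlapped with HS, HS with A10 and HS+A10 with A10-FMT. Over the 18 libraries the log2 levels of Foxo1 and Foxo3 had a Pearson r of 0.91, which describes libraries that share their groups and their scaling.

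**Figure D1:**
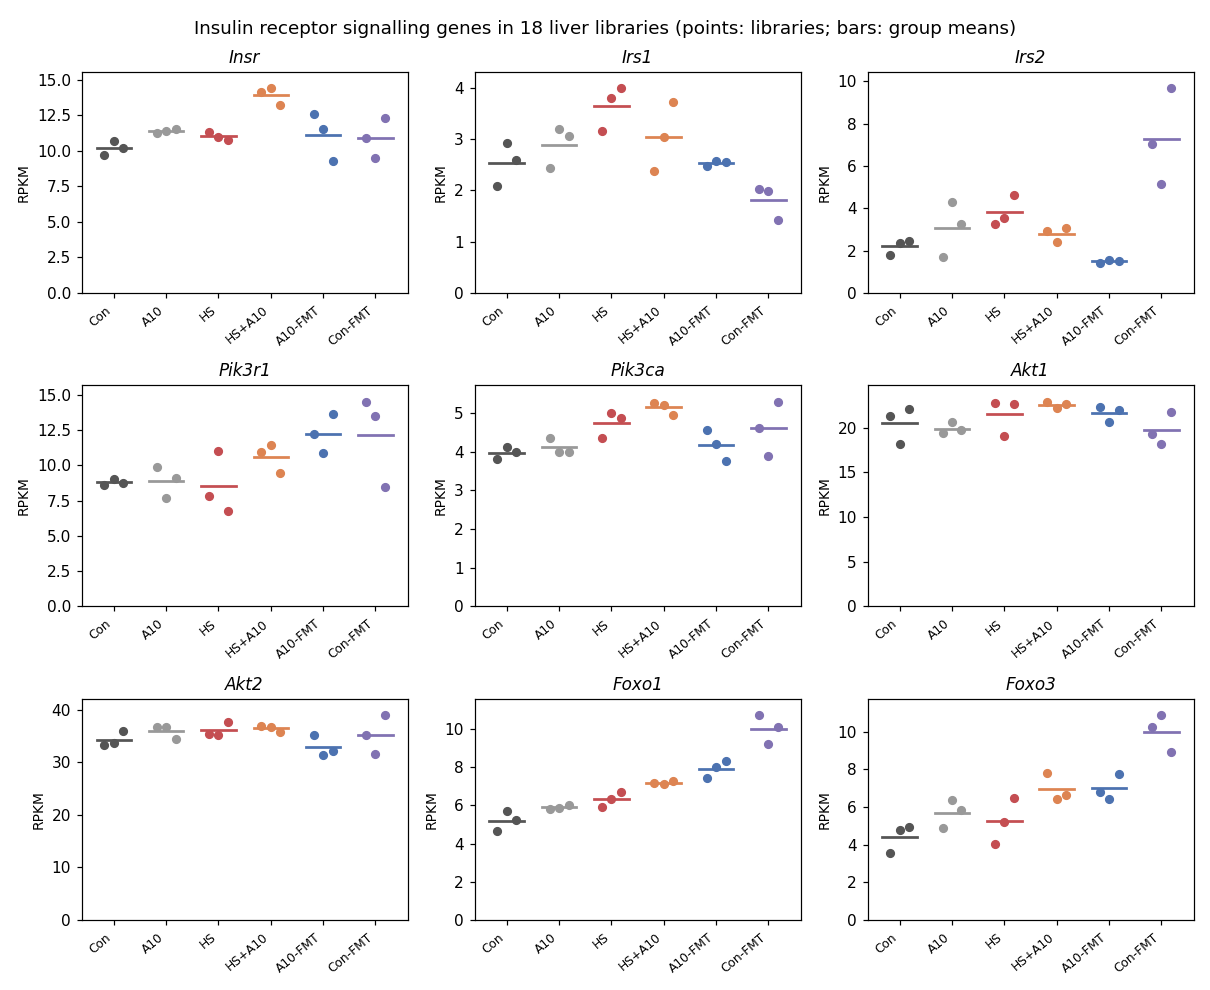
Level of each of the 9 genes in RPKM (y axis, from 0) in the 3 libraries of each of the 6 groups (points), with the mean of the 3 as a bar. Irs2 reaches from 1.43 RPKM in A10-FMT to 9.67 RPKM in Con-FMT, Foxo1 and Foxo3 are highest in Con-FMT, and Akt1 and Akt2 lie at similar levels in all groups.

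Group differences were tested in a single limma fit of all 18 libraries on the log2(RPKM + 1) scale. Called means an adjusted p under 0.05 (Benjamini-Hochberg, over 10204 genes). A log2 change on this scale understates the change of genes at low RPKM. An exact permutation test of 3 libraries against 3 cannot give a p below 0.1, the value it gave wherever 2 groups did not overlap.

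The first comparison asked what the high-fat diet and STZ changed. Of the 9 members, 2 were called in HS against Con and both were higher, beside 17.7% of all tested genes (15.9% higher and 1.87% lower). Irs1 rose by 0.40 on the log2 scale (SE 0.13, adjusted p 0.0485), from 2.54 ± 0.42 RPKM in Con to 3.65 ± 0.44 in HS (SD, n = 3). Foxo1 rose by 0.24 (SE 0.07, adjusted p 0.0359), from 5.19 ± 0.53 to 6.32 ± 0.42 RPKM. Irs2 differed by 0.58 (95% interval 0.12 to 1.04, adjusted p 0.071), and its ranges did not overlap. The other 6 members had changes between -0.06 and 0.21. Groups did not overlap for 5 of the 9 members, Insr and Pik3ca among them, beside 36.8% of all tested genes. The median of all tested genes was itself 0.14 higher in HS, and the members' median was 0.20. After scaling of all libraries to a common median, no member was called (Irs1 0.26, adjusted p 0.254, and Foxo1 0.08, adjusted p 0.544), and 45.0% instead of 89.4% of all calls were higher. Both calls were also lost without Con replicate 3 and A10 replicate 3 (adjusted p 0.117 for Irs1 and 0.106 for Foxo1), and without any 1 of Con replicates 1 and 3 and HS replicates 2 and 3 (adjusted p 0.0816 to 0.191). Without Con replicate 3 and A10 replicate 3 the changes were 0.41 and 0.25, and 6.83% of all tested genes were called. Stellate cell markers (7 genes) summed to between 176 and 232 RPKM in HS and to between 97.7 and 131 in Con, with 3 of 7 called higher, and red cell genes (5) to between 2886 and 10041 RPKM and between 1256 and 1972. Their part in the member changes was not tested.

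The same question was asked among mice that received AOS. In HS+A10 against A10, 2 members were called and both were higher, beside 20.9% of all genes (13.6% higher and 7.28% lower). Pik3ca rose from 4.11 ± 0.21 to 5.14 ± 0.16 RPKM (log2 change 0.27, SE 0.09, adjusted p 0.041). Foxo1 rose from 5.90 ± 0.09 to 7.19 ± 0.09 RPKM (0.25, SE 0.07, adjusted p 0.0286). Insr was at 0.27 (95% interval 0.06 to 0.47, adjusted p 0.0616). Without Con replicate 3 and A10 replicate 3 neither gene passed (0.25, adjusted p 0.147 for Pik3ca and 0.26, adjusted p 0.0861 for Foxo1), and 11.4% of all tested genes were called. Both calls were lost with any 1 library of these groups left out (adjusted p 0.052 to 0.119), and after scaling Pik3ca alone was called. The replicate block left Pik3ca at an adjusted p of 0.0592. Of the sinusoidal endothelium markers 5 of 6 were called higher (median 0.62), with sums of 58.4 to 71.2 RPKM in HS+A10 and 39.8 to 50.3 in A10. Stellate cell markers summed to 173 to 183 RPKM and to 123 to 146, with 3 of 7 called higher, and hepatocyte markers to 49316 to 51141 and to 59742 to 66316, with 4 of 8 called lower. Their part in the member changes was not tested. For no member did the effect of diet and STZ differ between mice with and without AOS, as far as the interaction could show. Here limma called 0 of 9 members, none also at an unadjusted p under 0.05, beside 0.00980% of all genes, and the largest difference was that of Irs2 (-0.64, 95% interval -1.28 to 0.01, adjusted p 0.394).

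The 4 groups on high-fat diet and STZ were also set against the 2 groups not labelled with them, Con and A10. The A10 label names no diet. Here 3 members were higher and none lower, beside 32.4% of all genes called (20.3% higher and 12.1% lower). Foxo1 rose by 0.42 (SE 0.05, adjusted p 1.08e-05) and Foxo3 by 0.44 (SE 0.09, adjusted p 0.0014). Pik3ca rose by 0.16 (SE 0.05, adjusted p 0.0281). The calls of Foxo1 and Foxo3 remained after scaling (0.37 and 0.39) and without Con replicate 3 and A10 replicate 3 (adjusted p 0.000379 and 0.00652), and under every single library left out. Pik3ca kept its call after scaling but had an adjusted p of 0.113 without these 2 libraries, and of 0.0547 to 0.068 without any 1 of Con replicates 1 and 3 and A10 replicates 2 and 3. Without both libraries its change was 0.16, and 20.4% of all tested genes were called. Irs2 was called without A10 replicate 2 (0.41, adjusted p 0.0266) or Con-FMT replicate 2 (0.35, adjusted p 0.0368), and Pik3r1 without Con-FMT replicate 3 (0.30, adjusted p 0.0156). Of the stellate cell markers 6 of 7 were called higher (median 0.41), and of the hepatocyte markers 4 of 8 lower and 2 higher. Their part in the member changes was not tested. The mean of the 4 groups joins unlike values, since Irs2 was lowest in A10-FMT and highest in Con-FMT. Likewise, the Foxo3 mean was 5.25 RPKM in HS and 10.01 in Con-FMT. Foxo3 was called neither in HS against Con (0.20, adjusted p 0.329) nor in HS+A10 against A10 (0.25, adjusted p 0.225).

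The microbiota of AOS-dosed donors was then compared with no transplant. In A10-FMT against HS, 3 members were called, beside 23.1% of all genes (2.09% higher and 21.0% lower). Irs2 fell by 0.93 on the log2 scale (SE 0.22, adjusted p 0.00801), from 3.82 ± 0.74 to 1.51 ± 0.08 RPKM. Irs1 fell by 0.39 (SE 0.13, adjusted p 0.0435), from 3.65 ± 0.44 to 2.54 ± 0.05 RPKM, the Con mean. Foxo1 rose by 0.29 (SE 0.07, adjusted p 0.0139), from 6.32 ± 0.42 to 7.93 ± 0.45 RPKM. Pik3r1 was at 0.49 (95% interval 0.12 to 0.86, adjusted p 0.0524) and Foxo3 at 0.37 (0.07 to 0.67, adjusted p 0.0669). The remaining 4 members, with the receptor at 0.00 and Akt1 at 0.01, were at -0.15 or above.

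The median of all genes was 0.16 lower in A10-FMT than in HS, against 0.00 for the members. After scaling to the same median, Irs2 (-0.79, adjusted p 0.029) and Foxo1 (0.46, adjusted p 0.00203) were still called, Pik3r1 (0.67, adjusted p 0.027) and Foxo3 (0.54, adjusted p 0.0307) were called too, and Irs1 was not (-0.24, adjusted p 0.259). The share of higher calls among all genes moved from 9.03% to 55.3%. Irs2 was called with every library left out in turn (adjusted p at most 0.0359). Irs1 was not called without any 1 of HS replicates 2 and 3 and the 3 A10-FMT replicates (adjusted p 0.077 to 0.131). Without Con replicate 3 and A10 replicate 3, which are in neither group, its change stayed at -0.39 with an adjusted p of 0.0705. Foxo1 was at an adjusted p of 0.0573 without A10-FMT replicate 3. Without HS replicate 2 or 3 Pik3r1 (0.67, adjusted p 0.0207) or Foxo3 (0.51, adjusted p 0.0266) was called. Kupffer cell markers (7 genes) summed to between 44.9 and 56.9 RPKM in A10-FMT and to between 67.0 and 112 in HS, with 5 of 7 called lower, and red cell genes (5) summed to between 1135 and 2049 RPKM and to between 2886 and 10041. Their part in the member changes was not tested.

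The microbiota of control donors gave a different picture for the adaptor Irs2. In Con-FMT against HS, 4 members were called, beside 23.6% of all genes (4.61% higher and 19.0% lower). Irs1 fell by 0.73 (SE 0.13, adjusted p 0.00135), to 1.81 ± 0.34 RPKM, whereas Irs2 rose by 0.76 (SE 0.22, adjusted p 0.0192), to 7.29 ± 2.28 RPKM. Foxo1 rose by 0.59 (SE 0.07, adjusted p 0.000115), to 10.00 ± 0.77 RPKM, and Foxo3 by 0.83 (SE 0.14, adjusted p 0.000909), from 5.25 ± 1.22 to 10.01 ± 1.00 RPKM. Pik3r1 was at 0.45 (95% interval 0.08 to 0.83, adjusted p 0.0707), and the other 4 members were between -0.12 and -0.02. The median of all genes was 0.12 lower in Con-FMT. After scaling all 4 calls remained and Pik3r1 was called as well (0.56, adjusted p 0.0388), and the share of higher calls among all genes moved from 19.5% to 40.9%. Red cell genes summed to 876 to 3619 RPKM in Con-FMT and to 2886 to 10041 in HS, with 3 of the 4 tested called lower, and stellate cell markers to 127 to 159 and to 176 to 232, with 2 of 7 called lower. Their part in the member changes was not tested.

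Without Con-FMT replicate 3, the library with pancreatic genes, Irs1 (-0.63, adjusted p 0.006), Foxo1 (0.58, adjusted p 0.000647) and Foxo3 (0.91, adjusted p 0.00157) were still called and Pik3r1 was called (0.68, adjusted p 0.00724), but Irs2 was not (0.56, adjusted p 0.0806). The Irs2 call was also lost without HS replicate 1 or 2 (adjusted p 0.0671 and 0.057), and Pik3r1 was called without HS replicate 2 (0.63, adjusted p 0.0202).

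The recipients of both microbiotas were then compared with each other, which is the comparison of donors with diet, STZ and inoculation shared. These 3 comparisons use the same libraries in pairs and are not independent of each other. In A10-FMT against Con-FMT, 3 members were called and all were lower, beside 18.8% of all genes (6.72% higher and 12% lower). Irs2 fell by 1.69 on the log2 scale (SE 0.22, adjusted p 0.000158), a level 0.311 times that of Con-FMT on this scale. Foxo1 fell by 0.30 (SE 0.07, adjusted p 0.0116) and Foxo3 by 0.46 (SE 0.14, adjusted p 0.033). Irs1 was at 0.34 in the opposite direction (95% interval 0.06 to 0.62, adjusted p 0.0837), with no overlap between the groups. Over 15 alternatives this Irs1 difference was between 0.24 and 0.48 (adjusted p 0.0436 to 0.265), and 1 of them called it. Con-FMT replicate 3, the library with pancreatic genes, had the lowest Irs1 level of its group (1.42 RPKM, beside 1.98 and 2.02). Pik3r1 was at 0.04 (95% interval -0.33 to 0.41), Insr at 0.02 (-0.18 to 0.23), Akt1 at 0.13 (-0.06 to 0.32), Akt2 at -0.09 (-0.25 to 0.07) and Pik3ca at -0.11 (-0.30 to 0.07).

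The Irs2 difference was called under every alternative that gave a test (-2.15 to -1.49) and at the paper's threshold, and without Con-FMT replicate 3 it was -1.49 (adjusted p 0.000737). Hepatocyte markers summed to 49071 to 58756 RPKM in A10-FMT and to 44508 to 57852 in Con-FMT, with 4 of 8 called lower, and sinusoidal endothelium markers to 31.9 to 43.4 and to 35.4 to 51.6, with 2 of 6 called lower. Their part in the member changes was not tested. After scaling Irs1 was called (0.40, adjusted p 0.0436) and Foxo3 was not (-0.39, adjusted p 0.0718). Foxo3 was lost without any 1 of A10-FMT replicates 1 and 2 and Con-FMT replicates 1 and 2 (adjusted p 0.0791 to 0.115), and Foxo1 without Con-FMT replicate 1 (0.0531). Without Con replicate 3 and A10 replicate 3, which are in neither group, the Foxo3 change stayed at -0.46 with an adjusted p of 0.0519.

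**Figure D2:**
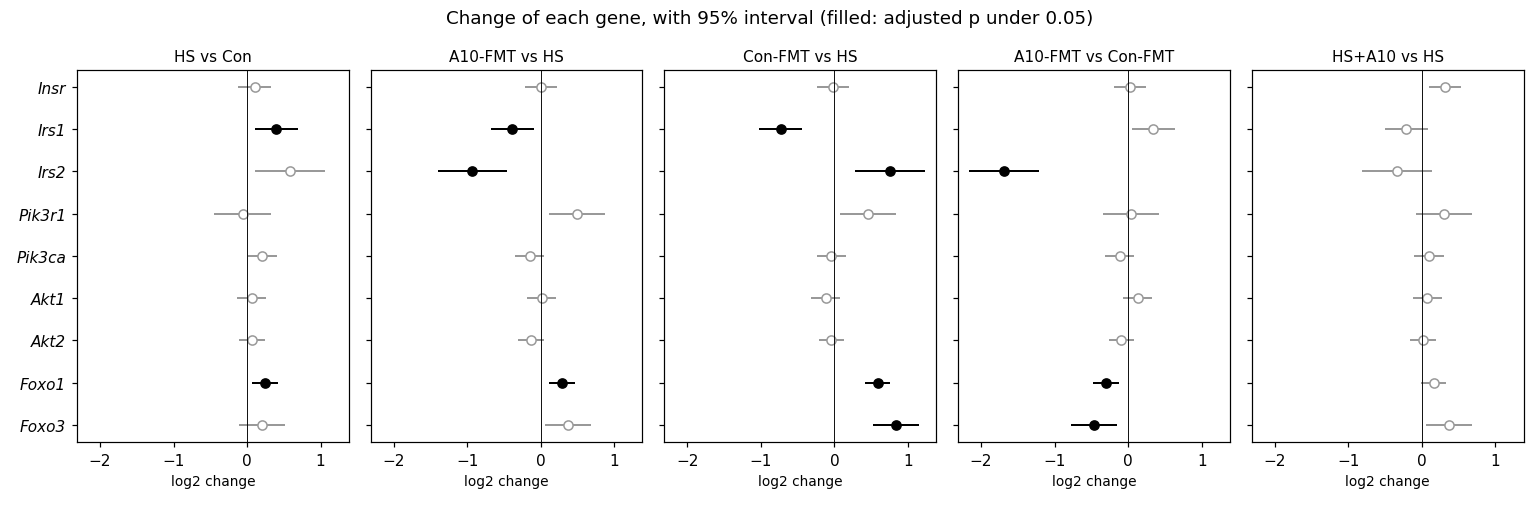
Log2 change (x axis) of each of the 9 genes (rows) in 5 comparisons, with the 95% interval from limma as a line and filled points for an adjusted p under 0.05. Irs2 is at -1.69 in A10-FMT against Con-FMT, and the points of Insr, Akt1 and Akt2 are open in all 5 panels.

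AOS given to the mice themselves was compared in HS+A10 against HS and in A10 against Con. In HS+A10 against HS, limma called 0 of 9 members, with 3 at an unadjusted p under 0.05, beside 7.32% of all genes. Insr came closest, at 13.93 ± 0.61 RPKM in HS+A10 and 11.03 ± 0.29 in HS with no overlap (log2 change 0.31, 95% interval 0.11 to 0.52, adjusted p 0.0614). After scaling it was called (0.35, adjusted p 0.0114). Groups did not overlap for 3 of the 9 members in this comparison, beside 27.4% of all tested genes. Irs2 was at -0.34 (95% interval -0.80 to 0.12) and Foxo3 at 0.37 (0.07 to 0.66, adjusted p 0.124). Sinusoidal endothelium markers (6 genes) summed to between 58.4 and 71.2 RPKM in HS+A10 and to between 43.2 and 49.96 in HS, and their part in the Insr values was not tested. In A10 against Con, limma called 0 of 9 members, with 2 at an unadjusted p under 0.05, beside 0.0686% of all genes. Foxo3 had the largest member change there (0.31, 95% interval 0.01 to 0.61, adjusted p 0.344, and 0.686 without Con replicate 3 and A10 replicate 3).

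The balance of both adaptors was also read within each library, where the scaling cancels. The ratio was chosen after the values had been seen. Irs1 over Irs2 was 1.07 to 1.23 in Con, 0.742 to 1.44 in A10, 0.858 to 1.07 in HS, 0.814 to 1.27 in HS+A10, and 1.63 to 1.73 in A10-FMT. Con-FMT had ratios of 0.147 to 0.386. The 3 A10-FMT libraries were above and the 3 Con-FMT libraries below all other libraries. Set against Con-FMT, the ratio of A10-FMT was 6.64 times as high (exact permutation p 0.1, two-sided, the smallest it can give), and 5.06 times as high without Con-FMT replicate 3, which had the ratio of 0.147. The ratio of Akt2 to Akt1 lay between 1.46 and 1.90 in all libraries, and that of Foxo3 to Foxo1 between 0.689 and 1.18.

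**Figure D3:**
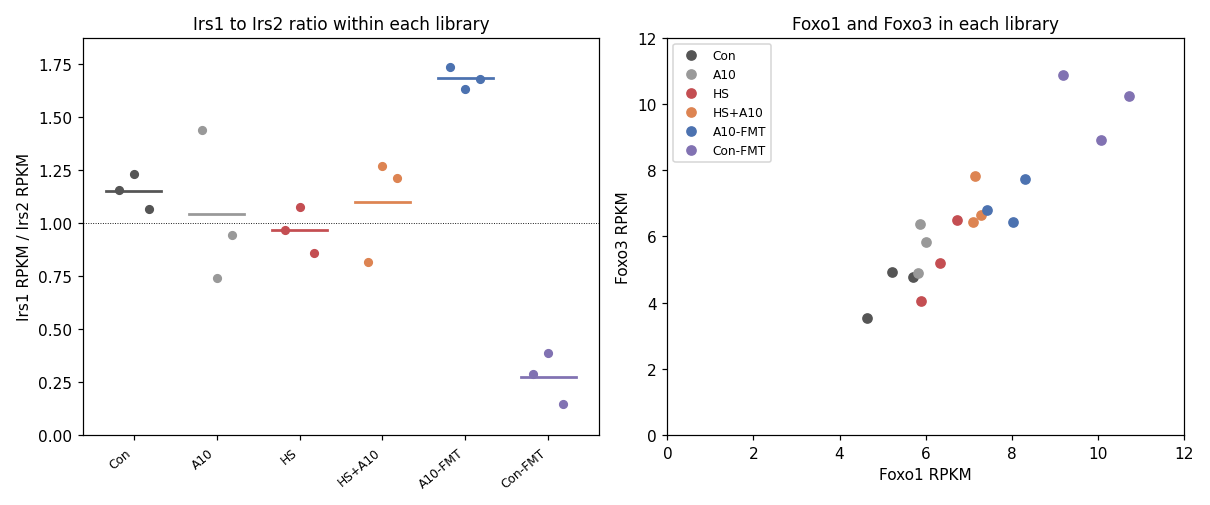
Left, the ratio of Irs1 to Irs2 RPKM (y axis) in the libraries of each group (points) with the group mean (bar) and a dotted line at equal levels. Right, Foxo3 against Foxo1 in RPKM for the 18 libraries, coloured by group. The ratio is between 1.63 and 1.73 in A10-FMT and at most 0.386 in Con-FMT, and the Con-FMT libraries stand apart at the upper right.

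For 4 members the 3 tested genes with the highest Pearson r of log2(RPKM + 1) over the 18 libraries were listed, as a description. They were Pdpr (0.92), Acad12 (0.91) and Abcb6 (0.91) for Insr, Usp12 (0.89), Ptpn21 (0.89) and Plxna2 (0.88) for Irs1, Atp6v0d1 (0.91), Nek1 (0.90) and Kdm5c (0.87) for Irs2, and Chd7 (0.93), Per1 (0.92) and Pim3 (0.92) for Foxo1. After removal of the group means r was between 0.81 and 0.92 for the genes of Insr and between -0.000734 and 0.51 for those of Foxo1, whose likeness thus lay mainly between groups. The libraries share groups and scaling.

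The rest of the pathway was described with 6 lists. Besides the members, the lists held 12 further receptors and adaptors (5 tested), 12 further kinase, mTOR and FOXO genes (8 tested), 18 inhibitors (14 tested), 18 effectors of AKT and mTORC1 (16 tested), 22 genes that FOXO activates and insulin represses (20 tested), and 13 genes that insulin induces in liver (12 tested). Igf1r, Irs3 and Foxo6 were among the genes below the filter.

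In HS against Con the genes that insulin induces were the list that fell. Of its 12 tested genes 4 were lower and none higher, beside 1.87% and 15.9% of all genes. The list median was -0.90 beside 0.14 for all genes. Scd1, the stearoyl-CoA desaturase, fell by 4.30 (adjusted p 0.0011) and Thrsp, a lipogenic factor, by 3.03 (adjusted p 0.00814). Gpam was lower as well. Scd1 was at 676.24, 815.21 and 740.04 RPKM in Con and at 17.43, 38.38 and 73.35 in HS, with no overlap, and had an adjusted p of 0.0111 without Con replicate 3 and A10 replicate 3. Srebf1, the lipogenic transcription factor, did not pass (-0.15, 95% interval -0.77 to 0.47). Of the genes that FOXO activates, 5 of 20 were higher and none lower, with a list median of 0.16, and after scaling 1 was higher. Pck1, the gluconeogenic enzyme PEPCK, rose from 311 ± 29 to 1023 ± 74 RPKM (log2 change 1.72, adjusted p 3.03e-06, and 0.000223 without the 2 libraries). Klf15 (0.75, adjusted p 0.0121) and Gabarapl1 (0.54, adjusted p 0.0146) rose less, and both missed the threshold after scaling (adjusted p 0.0575 and 0.108). G6pc, glucose-6-phosphatase, was at 0.56 (adjusted p 0.145), and Igfbp1, which encodes an insulin-repressed binding protein of the IGFs, at 0.70 (adjusted p 0.294).

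In HS against Con, 15.9% of all tested genes were higher and 1.87% lower, with a median of 0.14. Of the further kinase and FOXO genes 3 of 8 were higher, Mtor (0.57, adjusted p 0.000677), Foxo4 (0.29, adjusted p 0.024) and Mapkap1 (0.27, adjusted p 0.0336), with a list median of 0.27. Of the inhibitors 3 of 14 were higher, with a median of 0.13: Trib3, a pseudokinase that binds AKT (1.31, adjusted p 0.00267), Phlpp1, an AKT phosphatase (0.34, adjusted p 0.0286), and Inppl1, the lipid phosphatase SHIP2 (0.21, adjusted p 0.0393). Of the effectors 3 of 16 were higher, with a median of 0.13: Mdm2 (0.66, adjusted p 0.000367), Rptor (0.35, adjusted p 0.0162) and Tsc2 (0.27, adjusted p 0.0196). Sh2b1 was the called gene among 5 further adaptors (0.24, adjusted p 0.048), with a list median of 0.08. After scaling Mtor, Trib3 and Mdm2 were still called, and of the other genes just named none was. Without Con replicate 3 and A10 replicate 3 the lists kept 1 of 3, 1 of 3, 3 of 3 and 0 of 1 calls in this order, and the FOXO and insulin-induced lists 2 of 5 and 2 of 4. Calls among all tested genes went from 17.7% to 6.83%.

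Among mice that received AOS, 9 of 12 insulin-induced genes were lower in HS+A10 than in A10 (7 without Con replicate 3 and A10 replicate 3), with a median of -1.36. Of all tested genes 7.28% were lower and 13.6% higher. The FOXO-activated genes were split, with 6 higher and 3 lower of 20 (3 and 3 without the 2 libraries). Pck1 rose by 0.96 (adjusted p 0.000198), while Igfbp1 fell to 0.217 times the A10 level on this scale (adjusted p 0.00379). In A10 against Con, Pck1 was the 1 called of the 20 FOXO-activated genes, beside 0.0686% of all genes. It was at 548 RPKM in A10 and 311 in Con (0.82, adjusted p 0.0245). That call was lost after scaling (adjusted p 0.0793) and without the 2 libraries (adjusted p 0.493). Igfbp1 was at 8.49, 9.41 and 10.48 RPKM in HS+A10, lower than in any Con, A10 or HS library. Against HS it fell by 1.79 (adjusted p 0.0318). Without the 2 libraries, which are in neither of these groups, the change was the same (adjusted p 0.0654).

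In A10-FMT against HS most list genes were near the shift of all genes (median -0.16). The list medians were between -0.19 and 0.00. Of all tested genes 21.0% were called lower and 2.09% higher. In the inhibitor list 4 of 14 were lower, whereas after scaling 2 were higher and none lower. The lower genes were the phosphatases and adaptors Inppl1 (-0.32, adjusted p 0.00486), Ptpn1 (-0.32, adjusted p 0.0242) and Grb14 with the PP2A subunit Ppp2r5b (-0.29, adjusted p 0.0303). Of the FOXO-activated genes 4 of 20 were lower, whereas after scaling 2 were higher and none lower. The lower genes were Ccng2 (-0.52, adjusted p 0.0129), Mttp (-0.44, adjusted p 0.0152), Pdk4 (-0.72, adjusted p 0.03) and Pck1 (-0.41, adjusted p 0.0332). Mdm2 (-0.53, adjusted p 0.00133) and Bad (-0.39, adjusted p 0.0423) were the 2 lower of 16 effectors, Grb2 (-0.24, adjusted p 0.013) the 1 of 5 adaptors and Mtor (-0.24, adjusted p 0.0491) the 1 of 8 kinase genes. After scaling Mdm2 was the one of these that was still called (adjusted p 0.026). Thrsp was the 1 higher gene of 12 that insulin induces, and it rose by 3.93 (adjusted p 0.00159, and 0.00186 after scaling), from 6.19, 49.96 and 65.22 RPKM in HS to 337.95, 356.98 and 704.16. Srebf1 (0.68, adjusted p 0.0968), G6pc (-0.57, adjusted p 0.124) and Igfbp1 (-1.24, adjusted p 0.0631) did not pass.

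Of the inhibitors 5 of 14 were higher in Con-FMT than in HS and 3 lower, beside 4.61% and 19.0% of all genes. The list median was 0.06 beside -0.12 for all genes. The 5 higher genes are named here after their values had been seen. Socs3, a cytokine-induced inhibitor of the receptor and of IRS proteins, was at 16.21, 11.49 and 31.92 RPKM in Con-FMT and between 1.72 and 6.42 in every other library, and rose by 2.35 (adjusted p 0.000411). Trib1 rose by 1.65 (adjusted p 0.0025). The phosphatases Ptpn1 (0.41, adjusted p 0.00661) and Ptpn2 (0.34, adjusted p 0.0185) and the adaptor Grb10 (0.69, adjusted p 0.0153) rose as well, and all 5 were still called after scaling. Without Con-FMT replicate 3 Socs3 was at 1.96 (adjusted p 0.00151), Trib1 at 1.76 (0.00467), Ptpn1 at 0.38 (0.0227) and Grb10 at 0.93 (0.00147), and Ptpn2 missed the threshold (0.28, adjusted p 0.073). Igfbp1 rose by 2.09 (adjusted p 0.0051), from 25.58, 48.02 and 34.94 RPKM in HS to 92.30, 272.96 and 139.08 (2.15 without replicate 3, adjusted p 0.0113). Of the FOXO-activated genes 4 of 20 were higher, Igfbp1, Trib1, Klf15 and Gadd45a, and 3 lower, with a median of 0.06. Of the genes that insulin induces 1 of 12 was higher and 1 lower, Gpam, with a median of -0.46. The higher gene was Thrsp, which rose by 3.39 (adjusted p 0.00243), to 361.36, 266.03 and 289.15 RPKM, and by 3.43 without replicate 3 (adjusted p 0.00679). Pck1 (0.27, adjusted p 0.148), G6pc (-0.65, adjusted p 0.0882) and Srebf1 (-0.61, adjusted p 0.144) did not pass. Of the further kinase genes 4 of 8 were lower, and after scaling 1, which was Mtor.

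Between the recipients, A10-FMT was lower than Con-FMT in 6 of 14 inhibitors and higher in 1 (4 and 2 after scaling), with a median of -0.19 beside -0.03 for all genes. Socs3 fell by 2.11 (adjusted p 0.00102) and Ptpn1 by 0.73 (adjusted p 0.000167). Igfbp1 fell by 3.33 (adjusted p 0.000283), to 5.38, 16.01 and 31.78 RPKM, and Pck1 by 0.68 (adjusted p 0.00234), from 1234 ± 69 to 774 ± 127 RPKM. Srebf1 rose by 1.29 (adjusted p 0.0066), from 25.4 ± 6.8 to 63.3 ± 15.1 RPKM. G6pc (0.08, 95% interval -0.49 to 0.64) did not pass. Without Con-FMT replicate 3 the 5 called genes just named were still called, Socs3 at -1.72, Ptpn1 at -0.70, Igfbp1 at -3.39, Pck1 at -0.73 and Srebf1 at 1.49 (adjusted p at most 0.00564), and 4 inhibitors were lower and 1 higher. Of the FOXO-activated genes 3 of 20 were lower (2 without that library), near the share of all genes, and none higher, with a median of -0.06.

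**Figure D4:**
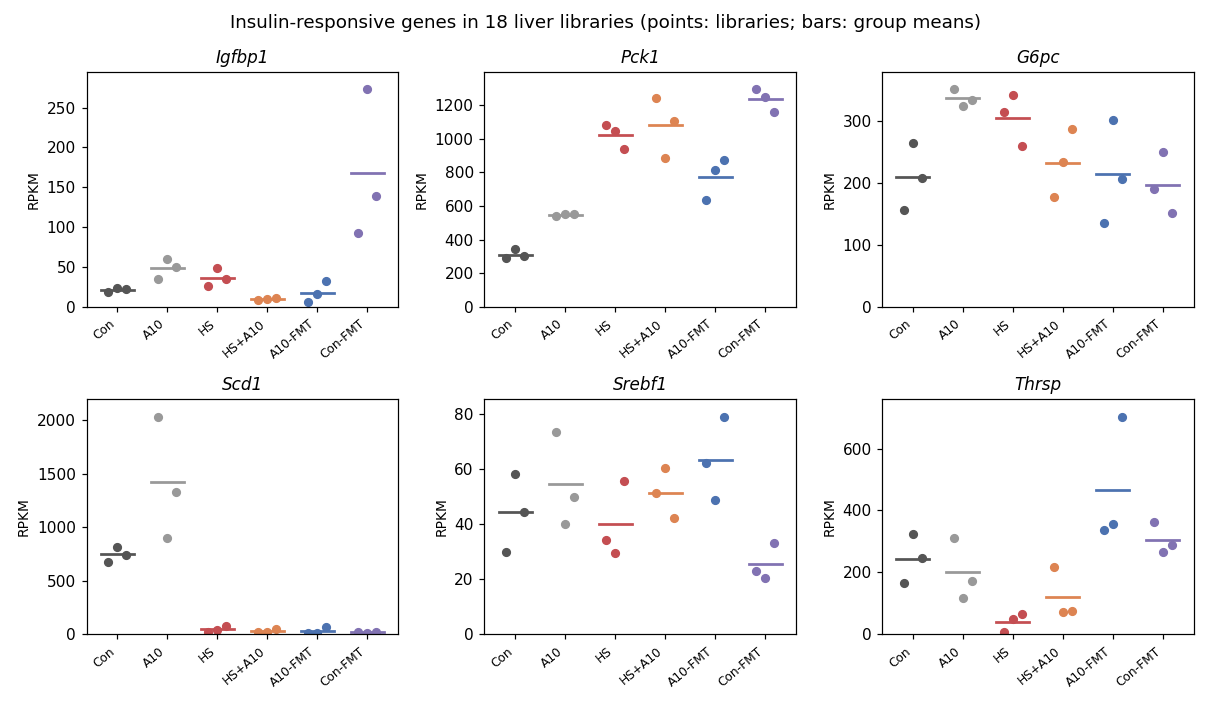
Level in RPKM (y axis, from 0) of 3 genes that FOXO activates (Igfbp1, Pck1, G6pc) and 3 that insulin induces (Scd1, Srebf1, Thrsp) in the libraries of each group (points) with the group mean (bar). Igfbp1 is highest in Con-FMT, where its libraries reach 272.96 RPKM, and Pck1 is lowest in Con.

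**Figure D5:**
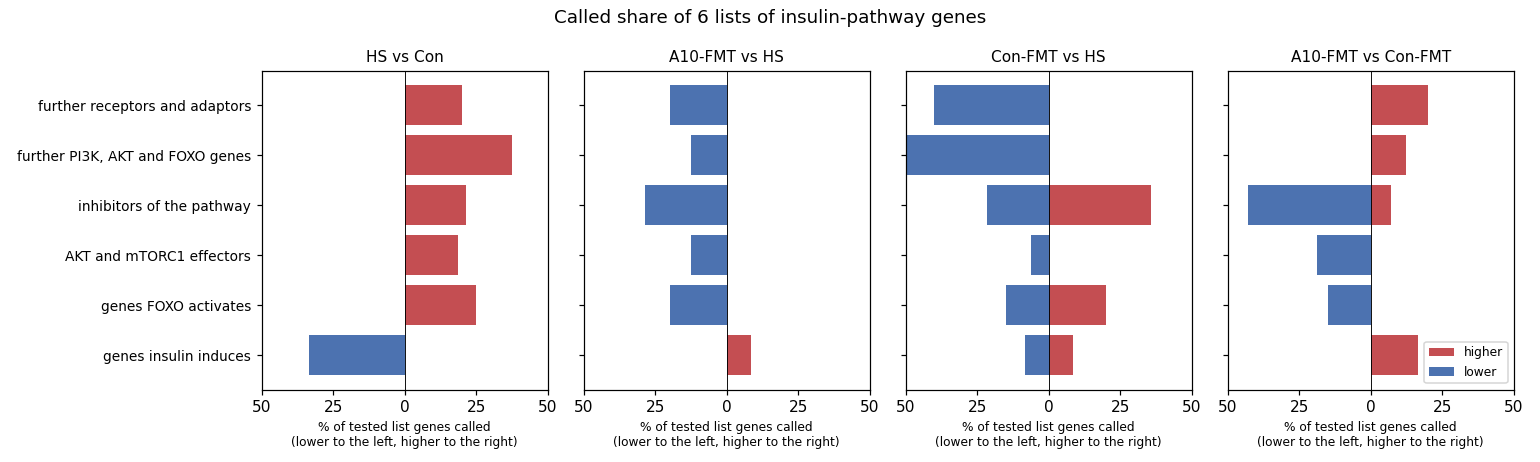
Share of the tested genes of each of 6 lists (rows) called higher (to the right) or lower (to the left) in 4 comparisons, in percent. In HS against Con the insulin-induced list is the one with lower genes (4 of 12), and in A10-FMT against Con-FMT 6 of 14 inhibitors are lower.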

How the data were processed

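Liver RNA was measured in 18 libraries. Per the study's methods, mRNA was enriched with oligo(dT) beads, sequenced on an Illumina HiSeq instrument and mapped to reference genes with SOAPaligner, while the submitters' processing notes name Bowtie 0.12.2 and the build mm10. The authors deposited RPKM values with 2 decimals, and their depth in reads is unknown. From these values log2(RPKM + 1) was computed, genes whose mean over the 18 libraries reached 1 RPKM were kept (10204 of 19057), and 1 mean per group was fitted in R 4.3.3 with limma 3.58.1, with a variance trend. All tests were two-sided, with Benjamini-Hochberg adjustment over the tested genes. The paper's test, DEGseq, was not used. Groups came from the sample labels. The members and lists were chosen with earlier results of these data known, the lists from general knowledge of the pathway.

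All 9 members were described in every group. Also named were Igfbp1, Pck1, G6pc and Srebf1, up to 3 called genes per list with the smallest adjusted p in HS against Con and in A10-FMT against HS, and the 3 genes most like Insr, Irs1, Irs2 and Foxo1. Some listed genes are counted but not reported here by name. Other genes were named after their values had been seen. Gene positions are from GENCODE on GRCm38, the same assembly as mm10, and promoters from RefSeq. The method was tested on simulated data. Marker sums added the RPKM of hepatocyte, Kupffer cell, stellate cell, sinusoidal endothelium, cholangiocyte, lymphocyte, red cell and pancreatic acinar cell genes. The cholangiocyte genes (17.03 to 44.4 RPKM in sum over all libraries) and the lymphocyte genes (1.63 to 5.35) stand beside no result. Alternatives were median scaling, quantile normalization, a smaller pseudocount (0.1), no filter or a stricter one (mean of 5 RPKM), a replicate block, the 12 libraries of the paper's groups or only the groups compared, no variance trend, the paper's threshold and each replicate left out. Leaving out Con replicate 3 and A10 replicate 3 together, and Con-FMT replicate 3 for listed genes and the adaptor ratio, was chosen after seeing the data.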

Additional observations from a re-analysis of the deposited data

Results flagged for a closer look

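Among the members and insulin-responsive genes, 6 values were singled out because the response to the transplant differed between the donors, by the limma test of A10-FMT against Con-FMT itself. Among the members these were Irs2 (-1.69 on the log2 scale, adjusted p 0.000158), Foxo1 (-0.30, adjusted p 0.0116) and Foxo3 (-0.46, adjusted p 0.033). Among the insulin-responsive genes these were Igfbp1 (-3.33, adjusted p 0.000283), Pck1 (-0.68, adjusted p 0.00234) and Srebf1 (1.29, adjusted p 0.0066). They are not all the called genes of the lists, since Trib1 (lower, FOXO-activated) and Gpam (higher, insulin-induced) were called as well. Every A10-FMT library of Irs2, Foxo1 and Foxo3 was below every Con-FMT library. Groups did not overlap for 4 of the 9 members in this comparison, beside 31.5% of all tested genes. Each donor group was 1 pooled inoculum, so donor and pool cannot be told apart. Con-FMT replicate 3 carried pancreatic genes, and without it Irs2 was at -1.49, Foxo1 at -0.29, Foxo3 at -0.53, Igfbp1 at -3.39, Pck1 at -0.73 and Srebf1 at 1.49, all still called. Under the other alternatives the calls were less firm for Foxo3, which lost its call in 10 of 16 (adjusted p up to 0.115). Foxo1 lost its call in 2 of 16 (adjusted p up to 0.0983).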

How the results depend on the processing

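The 31 member changes with an unadjusted p under 0.05 kept their direction under every alternative, and of 526 recomputed values 436 kept their side of the threshold, 72 fell short of it and 18 newly passed it. Over all 81 member changes median scaling turned 13, none called with or without it and all at most 0.15 in size, such as Insr (0.10 to -0.07) and Akt1 (0.06 to -0.12) in HS against Con. The 2 members called in HS against Con became 0 with median scaling, 0 with quantile normalization, 0 in the 12 libraries of the paper's groups, 0 with only the groups compared, 0 at the paper's threshold (adjusted p of at most 0.001 and a log2 change of at least 1) and 0 without Con replicate 3 and A10 replicate 3. They became 1 with a pseudocount of 0.1, 1 with no filter and 1 at a mean of 5 RPKM, and 0 to 2 with single libraries left out. The 2 called in HS+A10 against A10 became 1 with median scaling, 1 with quantile normalization, 1 with no filter, 1 at a mean of 5 RPKM and 1 with the replicate block. They became 0 at the paper's threshold, 0 without both libraries and 0 without any single one. The 3 called with all 4 diet and STZ groups became 0 at the paper's threshold. In A10-FMT against HS, 3 became 1 with only the groups compared, 0 at the paper's threshold and 1 to 3 with libraries left out (1 without A10-FMT replicate 3). In Con-FMT against HS, 4 became 2 at a mean of 5 RPKM and 0 at the paper's threshold. In A10-FMT against Con-FMT, 3 became 1 with only the groups compared, 1 at the paper's threshold (Irs2) and 1 to 3 with libraries left out (1 without Con-FMT replicate 1). In HS+A10 against HS, 0 became 1 (Insr) with median scaling and 1 with quantile normalization. At a mean of 5 RPKM Irs1, Irs2 and Pik3ca were not tested, and the cause of the other changes was not tested. Same-numbered libraries deviated together with correlations of only -0.0932 to 0.262, so the numbers do not pair them, and the replicate block changed no other count of members called. Depth in reads is unknown, so its effect on Irs1 and Irs2, at the 20.8th and 26.9th percentile of the tested levels, could not be given.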
